A study of Mus musculus with 6 samples.

Results

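The collagen chain genes are the 44 of 41064 genes in the deposited table whose symbol is Col, a type number, the letter a and a chain number. They were sorted by the kind of assembly their protein enters, giving 11 fibrillar, 9 basement membrane, 9 network, 9 FACIT (collagens that bind to the surface of fibrils), 4 transmembrane and 2 other chain genes. Each was followed through bulk RNA sequencing of 6 mouse aortas, 3 with the genotype label JOSD2 KO and 3 with the label WT. All 6 mice had received Ang II (angiotensin II, a peptide hormone that constricts arteries and is given to make their walls thicken and stiffen), so the controls carry the treatment too, and untreated aortas were not analysed here. JOSD2 is a deubiquitinase of the Josephin family, and the study's title concerns its action on SMAD7, an inhibitor of TGF-beta signalling. The strain, age and sex of the mice, the dose and duration of Ang II, and the kind of Josd2 allele (part of the gene deleted, whole body or a Cre line) are not stated in the labels.

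Collagens are secreted as trimers of chains wound into a long helix. Fibrillar collagens of type I and III form the tensile cables of the arterial media and adventitia, with type V inside the fibril. Type IV forms the sheet-like basement membrane around each smooth muscle cell and under the endothelium, type VI a beaded filament next to it, and type VIII a short-chain lattice made by vascular cells during remodelling. FACIT collagens decorate fibrils, and transmembrane collagens sit in the cell surface. Several types need chains from different genes in 1 trimer, so the balance of partner transcripts is a quantity of its own.

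Levels are given as CPM, counts scaled to a common library size with TMM factors, which equalise the typical gene between libraries, for the libraries labelled knockout and wild type of replicates 1, 2 and 3, with SD over n = 3. Adjusted p-values are those of edgeR's quasi-likelihood test over 20132 genes, a gene was called at an adjusted p under 0.05, and log2 values with an SE are fitted fold changes of the labelled knockout level over that of wild type. Summed counts were 69788553 to 75886761 in the libraries labelled knockout and 63612353 to 74241278 in wild type. Josd2 itself had 21.7, 19.9 and 21.4 CPM in the libraries labelled knockout, against 29.9, 31.0 and 29.3 CPM in wild type (log2 fold change -0.52, edgeR adjusted p = 0.000244, and -0.11 with library totals). The groups did not overlap and the transcript was still detected in every library labelled knockout, so the samples are called by their label throughout. Mitochondrially encoded genes took 23.8% to 23.9% of counts in the libraries labelled knockout and 36.2% in wild type. Scaling by library totals, mitochondrial counts included, moves the median log2 fold change of all genes to 0.41, against -0.003 with TMM, and a named gene called with TMM is marked below where its direction turns under library totals. Marker sums are on the TMM scale. The study's design text speaks of 3 mice in each group. For genes over 10000 mean counts the median CV (SD over mean) was 1.62% in libraries labelled knockout and 1.98% in wild type. SE and p-values measure this narrow spread between libraries, and whether it is as wide as that between mice was not tested.

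The tissue label was compared with marker genes of cell types. Of all genes tested, 13.2% were called higher and 11.5% lower with TMM. Smooth muscle markers dominated, at 19795 to 19913 summed CPM in the libraries labelled knockout and 20346 to 20522 in wild type, with 4 of 6 higher and 1 lower, Acta2, whose direction turns with library totals (log2 fold change -0.30, and 0.11 with library totals). Fibroblast markers summed to 1847 to 1884 CPM in the libraries labelled knockout and 1935 to 1967 in wild type, with 3 of 8 higher and 5 lower. With library totals 6 of these 8 were called higher and 2 were not called, beside 46.8% of all genes higher and 3.81% lower. All 6 endothelial markers were higher, at 672 to 673 summed CPM in the libraries labelled knockout against 388 to 390 in wild type. Lung epithelial markers summed to 1.77 to 2.91 CPM in the libraries labelled knockout and 13.8 to 18.2 in wild type, with 4 of 5 lower. Kidney markers summed to 10.8 to 11.97 CPM in the libraries labelled knockout and 28.8 to 32.7 CPM in wild type, with 2 of 4 tested lower, mainly Aqp2. Fat cell markers summed to 60.5 to 66.0 CPM in the libraries labelled knockout and 42.3 to 45.3 in wild type, with 2 of 5 higher. Nerve glia markers summed to 36.2 to 36.9 CPM in the libraries labelled knockout and 40.7 to 42.0 CPM in wild type, with 1 of 6 higher and 2 lower. Striated muscle markers summed to 8.26 to 9.01 CPM in the libraries labelled knockout and 11.1 to 11.8 CPM in wild type, with 2 of 6 lower. Keratinised epithelium markers summed to 1.47 to 1.89 CPM in the libraries labelled knockout and 1.35 to 2.88 CPM in wild type, with 1 of 2 tested lower and Krt14 at 0 in every library. The part of these cell types in the collagen results was not tested. In bulk tissue, fewer cells of a type and less RNA per cell cannot be told apart.

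Of the 44 collagen genes, 41 passed the filter on low counts. In the libraries labelled knockout 11 of these 41 were higher, 19 lower and 11 not called, and their median log2 fold change was -0.23, against -0.003 over all genes tested. The background of all genes was 13.2% called higher and 11.5% called lower. Among the 17 collagen genes with a mean FPKM of at least 10, 5 were higher and 12 lower, where 20.9% of all genes at that level were called higher and 34.0% lower. With library totals the collagen counts became 20 higher and 14 lower, against a background of 46.8% and 3.81%, and the share of collagen calls that were higher became 58.8%, against 36.7% with TMM. By range, 12 collagen genes were higher and 21 lower in all 3 libraries labelled knockout than in any wild type library, while 21.3% and 19.8% of all genes were so, and the other 8 overlapped.

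By type, 8 of 10 fibrillar genes tested were lower and 1 higher (median log2 fold change -0.67), and 5 of 9 basement membrane genes were higher and 3 lower (median 0.26). Network genes had 5 lower and 1 higher of 9 (median -0.32), FACIT genes 3 higher and 2 lower of 8 (median 0.03), and transmembrane genes 1 higher and 1 lower of 3 (median -0.27). Although more basement membrane genes were higher than lower, their summed TMM-scaled level was lower in the libraries labelled knockout. It was 5393 ± 24.3 CPM there and 6654 ± 48.6 CPM in wild type. Fibrillar and network sums were also lower, and FACIT and transmembrane sums higher. With library totals the medians of network and transmembrane genes turned to 0.09 and 0.13, and those of fibrillar, basement membrane and FACIT genes were -0.26, 0.67 and 0.44. Under library totals fibrillar genes stood at 3 higher and 7 lower, basement membrane and network genes each at 6 higher and 2 lower, and FACIT genes again at 3 higher and 2 lower. Of all genes, 13.2% were higher and 11.5% lower with TMM, and 46.8% and 3.81% with library totals. The median of all genes under library totals was 0.41, above those of fibrillar, network and transmembrane genes. The difference between types was not tested.

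**Figure D1:**
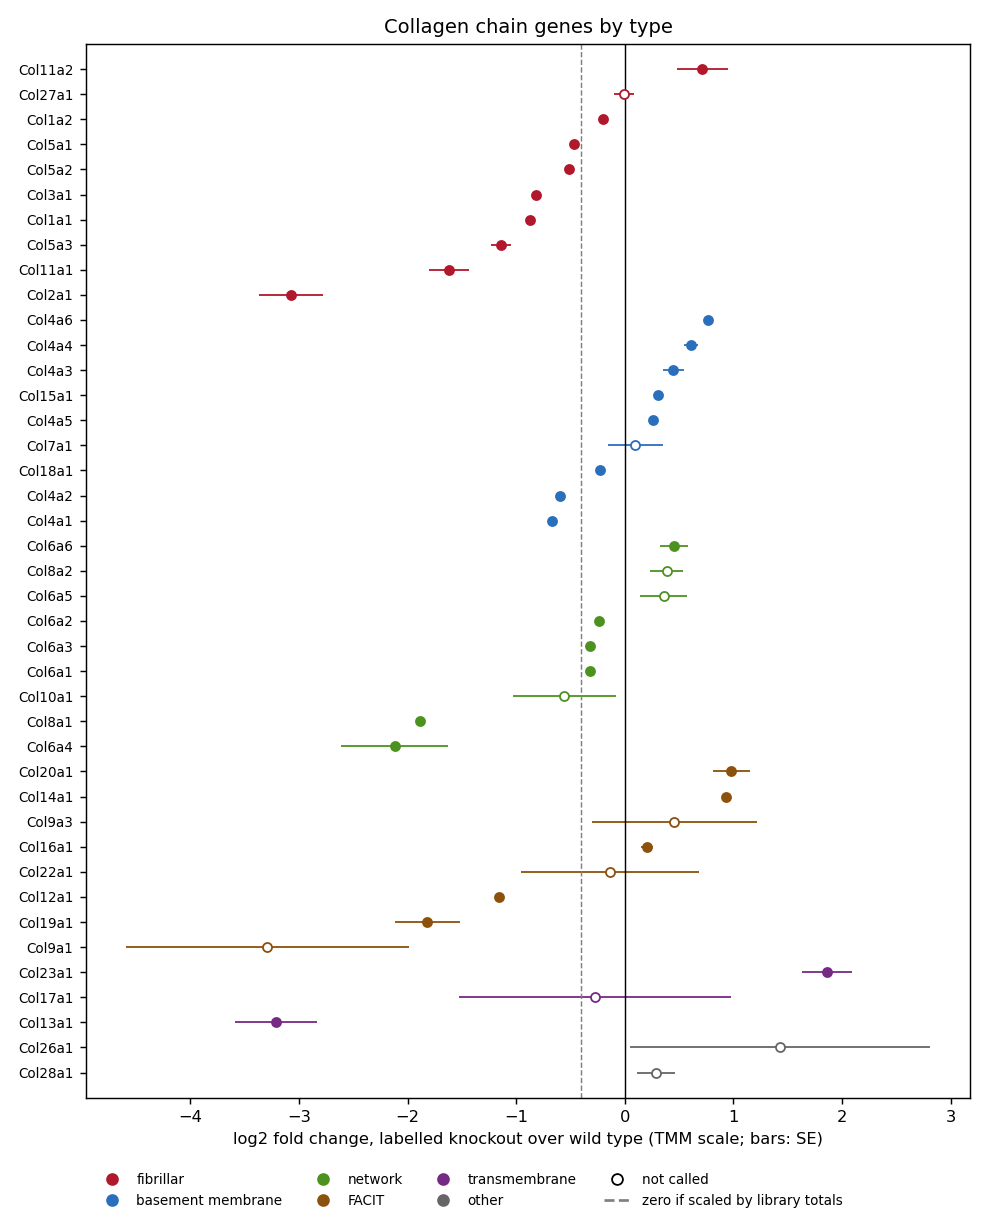
Log2 fold changes (labelled knockout over wild type, TMM scale) of the 41 collagen genes tested, grouped by type, with bars of 1 SE from edgeR and open points for genes that were not called. Most fibrillar points lie left of 0, while Col4a3 to Col4a6 lie right of it and Col4a1 and Col4a2 left, and the dashed line marks where 0 would fall with library totals, so that Col1a2, Col6a1, Col6a2, Col6a3 and Col18a1, between the lines, turn to higher under that scaling.

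Summed over all 44 genes, collagen transcripts came to 16949, 16952 and 17028 CPM in the libraries labelled knockout, against 23203, 23359 and 23534 CPM in wild type, a ratio of 0.727. The groups did not overlap (exact two-sided permutation p = 0.1, the smallest that 3 against 3 allows). As a share of counts without mitochondrial genes the sum was 2.57% ± 0.00956 in the libraries labelled knockout and 3.17% ± 0.0223 in wild type, and as a share of all counts 1.96% ± 0.00788 in the libraries labelled knockout and 2.03% ± 0.0151 in wild type. The direction of this full sum was thus the same on each scale, while the size of the difference depended on it. Without the 3 genes highest in mean FPKM (Col1a1, Col3a1 and Col18a1), the TMM-scaled sum was 10001.5 ± 41.1 CPM in the libraries labelled knockout. In wild type it was 12219 ± 71.7 CPM. The sum without these genes was not taken on the other scales, so its direction there is not given.

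Of the fibrillar genes, Col1a1 encodes the main chain of type I collagen, the chief tensile protein of the wall, and lies at chr11:94936224-94953042 on the plus strand (coordinates of the deposited table, as in GRCm38). It had 2166, 2178 and 2164 CPM in the libraries labelled knockout, against 3909, 3964 and 4031 CPM in wild type. Each library labelled knockout lay far below each wild type library, and Col1a1 fell 1.83-fold (log2 -0.87 ± 0.011 SE, edgeR adjusted p = 3.89e-13). Col3a1, the sole chain of type III collagen, whose human counterpart is mutated in vascular Ehlers-Danlos syndrome (here at chr1:45311538-45349706, plus strand), had 2615, 2627 and 2630.0 CPM in the libraries labelled knockout, against 4621, 4621 and 4633 CPM in wild type. It fell 1.76-fold (log2 -0.82 ± 0.0069 SE, edgeR adjusted p = 1.09e-14), with libraries of a group within a few percent of each other. Both were also lower with library totals, at -0.46 and -0.41.

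Col1a2, whose product joins that of Col1a1 in the type I trimer, moved little beside its partner. It had 3256, 3271 and 3281 CPM in the libraries labelled knockout, against 3746, 3773 and 3754 CPM in wild type. The groups were apart, and Col1a2 was 1.15-fold lower with TMM (log2 -0.20 ± 0.0072 SE, edgeR adjusted p = 6.08e-09) and higher with library totals (0.21), so its direction depends on the scaling. The 250 bases before the RefSeq starts of Col1a2 and Col3a1 are shown because these abundant fibrillar genes differed in how far they moved, and are taken from RefSeq (build GRCm38.p6). Capitals mark matches to the motifs searched, on either strand. The window of Col1a2 lies at chr6:4505368-4505617 and that of Col3a1 at chr1:45311288-45311537, both on the plus strand. The Col3a1 window ends at its deposited gene start, while the RefSeq start of Col1a2 lies inside the deposited gene span, downstream of its deposited start, so these windows are placed differently on the deposited genes.
Col1a2: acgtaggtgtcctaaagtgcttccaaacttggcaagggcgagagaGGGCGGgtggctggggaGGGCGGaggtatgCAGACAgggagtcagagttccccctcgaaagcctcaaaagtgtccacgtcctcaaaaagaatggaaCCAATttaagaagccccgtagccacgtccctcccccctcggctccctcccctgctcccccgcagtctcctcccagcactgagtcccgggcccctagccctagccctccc
Col3a1: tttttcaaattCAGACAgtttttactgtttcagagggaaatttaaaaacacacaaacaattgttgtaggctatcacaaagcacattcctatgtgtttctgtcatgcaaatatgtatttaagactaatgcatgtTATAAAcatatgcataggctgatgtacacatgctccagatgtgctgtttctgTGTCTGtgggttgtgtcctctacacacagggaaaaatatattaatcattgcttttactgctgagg
The Col1a2 window holds GC boxes, a CCAAT box and a short SMAD element, and no TATA box of the letters searched. The Col3a1 window holds a TATA box, and a short SMAD element on each strand, and no GC box.

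The motifs searched were the TATA box written TATAAA, the CCAAT box with those letters, the GC box written GGGCGG, a short SMAD element written CAGACA and the palindromic SMAD box GTCTAGAC. Each was sought on both strands in 250 bases before each start. None of these motifs contains another. RefSeq's table matched 35 of the 44 genes by symbol, with 38 windows, since some genes have more than 1 start. GGGCGG was in 22 of the 38 collagen windows (57.9%) and in 32.7% of 32851 windows of all genes, CAGACA in 9 (23.7%) and 17.1%, CCAAT in 13 (34.2%) and 33.8%, and TATAAA in 5 (13.2%) and 12.4%. GTCTAGAC was in 0 collagen windows and 0.167% of all windows. These matches describe letters, and nothing was tested about the factors that bind such motifs.

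Type V collagen, which sets fibril diameter, moved in step between its main chains. Col5a1 had 537, 519.8 and 536 CPM in the libraries labelled knockout, against 722, 738 and 746 CPM in wild type (log2 -0.47 ± 0.02 SE, edgeR adjusted p = 2.56e-08). Col5a2 had 611, 601 and 613 CPM in the libraries labelled knockout, against 861, 878 and 864 CPM in wild type (log2 -0.51 ± 0.016 SE, edgeR adjusted p = 2.17e-09). Both fell with groups apart. With library totals both were close to 0, at -0.06 and -0.10, yet still called lower (edgeR adjusted p = 0.0286 and 0.000351). Col5a3, a scarcer type V chain, fell further, at 15.4, 17.7 and 18.5 CPM in the libraries labelled knockout, against 41.6, 34.2 and 37.7 CPM in wild type (log2 -1.14 ± 0.095 SE, edgeR adjusted p = 6.21e-06). Col5a2 is the neighbour of Col3a1 on chromosome 1, the genes meeting tail to tail with 24.6 kb between them, and both fell.

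The cartilage chains Col2a1, Col11a1 and Col11a2 were scarce, each with a mean FPKM under 1. Col2a1, the chain of type II collagen, had 33, 80 and 47 counts in the libraries labelled knockout, against 275, 327 and 341 counts in wild type, or 0.410, 0.917 and 0.564 CPM in the libraries labelled knockout, against 4.99, 5.75 and 5.29 CPM in wild type. It fell 8.43-fold, with a log2 fold change of -3.08 (SE 0.30, edgeR adjusted p = 2.03e-05). Every library labelled knockout lay well below wild type. Col11a1, a type XI chain, had 190, 156 and 156 counts in the libraries labelled knockout, against 333, 372 and 381 counts in wild type, and 2.36, 1.79 and 1.87 CPM in the libraries labelled knockout, against 6.04, 6.54 and 5.91 CPM in wild type (log2 -1.62 ± 0.19 SE, edgeR adjusted p = 8.41e-05). Its partner Col11a2 had 4.07, 6.40 and 3.71 CPM in the libraries labelled knockout, against 2.85, 2.74 and 3.06 CPM in wild type (log2 0.71 ± 0.23 SE, edgeR adjusted p = 0.0458). Col11a2 was the single fibrillar gene called higher, its spread was wide, and the call held in 1 of 6 fits with a library left out, that without labelled knockout library 3 (edgeR adjusted p = 0.0369). Without labelled knockout library 2 the edgeR adjusted p was 0.224. Cartilage markers did not move together. Their sum was 230.4 to 239 CPM in the libraries labelled knockout and 239.7 to 248 CPM in wild type, of 6 tested Acan was lower, Comp higher and 4 not called, and Matn1 and Ucma were at 0 in all wild type libraries. Col27a1, a fibrillar chain of growth cartilage, was not called (16.8 ± 0.849 CPM in the libraries labelled knockout, 16.9 ± 1.55 CPM in wild type), and Col24a1 had 6, 3 and 5 counts in the libraries labelled knockout, against 14, 25 and 8 counts in wild type, and was not tested.

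**Figure D2:**
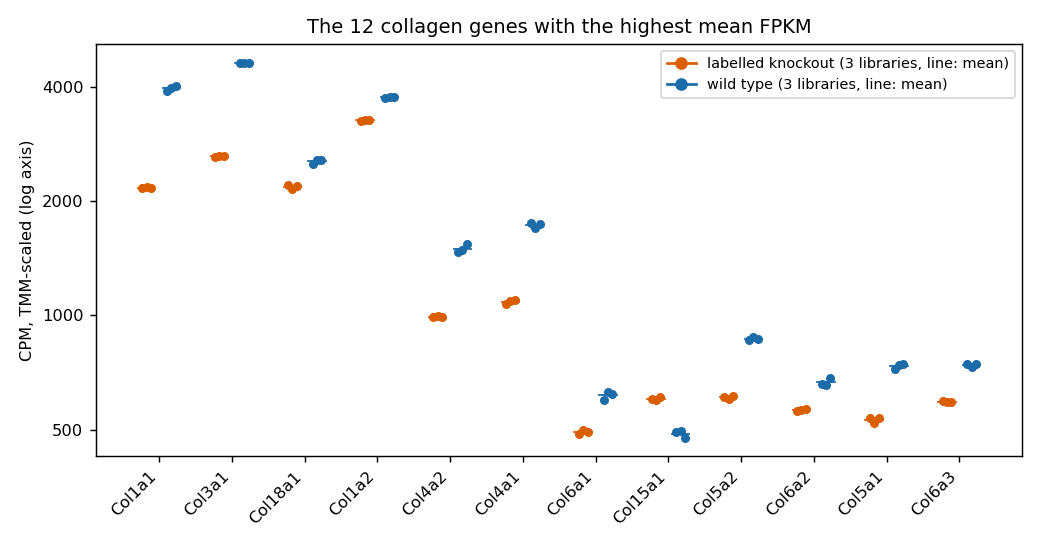
CPM on a log axis for the 12 collagen genes with the highest mean FPKM, each point a library and each line a group mean, labelled knockout left of wild type. The groups are apart for all 12, with Col15a1 the single gene higher in the libraries labelled knockout on this TMM scale, while Col1a2, Col18a1, Col6a1, Col6a2 and Col6a3 turn to higher with library totals.

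Ratios of partner chains within a library do not depend on library scaling, and 11 pairs were compared with an exact two-sided permutation test. For each pair whose groups were apart the p was 0.1, the smallest possible, or 0.1375 after Benjamini-Hochberg adjustment over the pairs, so no pair could pass a threshold of 0.05. Col1a1 to Col1a2 stood at FPKM ratios of 1.26, 1.26 and 1.25 in the libraries labelled knockout, against 1.98, 1.99 and 2.03 in wild type. The groups were far apart compared with their spread, the ratio being 1.59-fold lower in the libraries labelled knockout. The absolute ratio depends on length, since the deposited FPKM follow the union of all annotated exons, which for Col1a2 is 2.32 times its longest coding transcript and for Col1a1 1.11 times. Per kilobase of the longest coding transcript, a measure added after the data were seen, the ratio was 0.598 ± 0.0031 in the libraries labelled knockout and 0.952 ± 0.0142 in wild type. Col3a1 to Col1a1 differed little, at 0.809 ± 0.00332 in the libraries labelled knockout and 0.779 ± 0.0109 in wild type, as did Col5a1 to Col5a2, at 0.978 ± 0.0076 in the libraries labelled knockout and 0.9497 ± 0.0149 in wild type. Col11a1 to Col11a2 stood at 0.322, 0.159 and 0.285 in the libraries labelled knockout, against 1.15, 1.27 and 1.04 in wild type. This ratio between scarce chains was 4.71-fold lower, and its size depends on the pseudocount. It was 3.33-fold lower with 0.1 added to FPKM and 4.93-fold lower on counts.

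**Figure D3:**
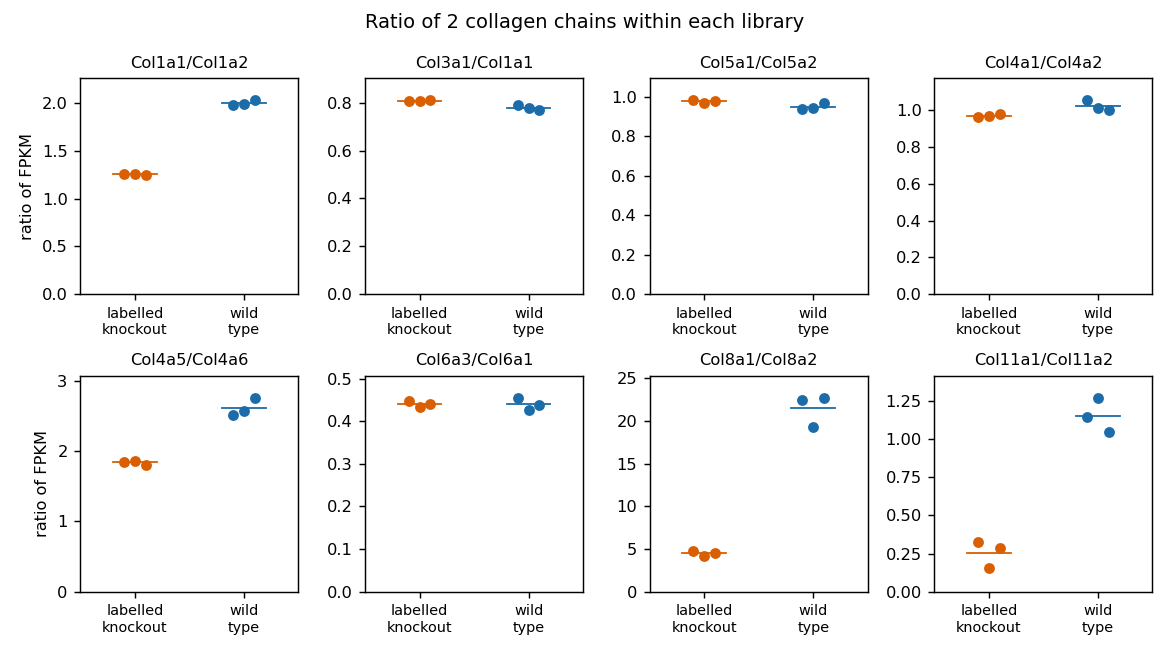
Ratio of the FPKM of 2 chains within each library, for 8 pairs, labelled knockout left of wild type, with lines at group means and axes from 0. The ratios of Col1a1 to Col1a2, Col4a5 to Col4a6, Col8a1 to Col8a2 and Col11a1 to Col11a2 are clearly lower in the libraries labelled knockout, while Col6a3 to Col6a1 overlap at means of 0.440 in both groups.

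Type IV collagen genes lie as head-to-head pairs, each pair read outwards from a shared start region, and the pairs went different ways. Col4a1 and Col4a2 encode the chains of the common network found in nearly all basement membranes, and both fell. Col4a3 and Col4a4, and on the X chromosome Col4a5 and Col4a6, encode the chains of more restricted networks (the human counterparts of Col4a3, Col4a4 and Col4a5 are mutated in Alport syndrome), and all 4 rose. The start regions are shown because each joins a pair that moved together. In the deposited coordinates Col4a4 (minus strand) ends 71 bases before Col4a3 (plus strand) begins, at chr1:82586850-82586920, Col4a1 and Col4a2 overlap by 22 bases at chr8:11312805-11312826, and 1308 bases separate Col4a6 and Col4a5. Sequences are from RefSeq's table, GRCm38.p6, with capitals for motif matches. The Col4a4 to Col4a3 gap is written on the minus strand, the Col4a1 to Col4a2 overlap on the plus strand, the window before Col4a5 (chrX:141475169-141475418) on the plus strand, which runs slightly past the deposited Col4a5 start, and that before Col4a6 (chrX:141474077-141474326) on the minus strand.
Gap between Col4a4 and Col4a3: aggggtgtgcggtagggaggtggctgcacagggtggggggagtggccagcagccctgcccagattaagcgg
Overlap of Col4a1 and Col4a2: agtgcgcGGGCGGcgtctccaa
Col4a5: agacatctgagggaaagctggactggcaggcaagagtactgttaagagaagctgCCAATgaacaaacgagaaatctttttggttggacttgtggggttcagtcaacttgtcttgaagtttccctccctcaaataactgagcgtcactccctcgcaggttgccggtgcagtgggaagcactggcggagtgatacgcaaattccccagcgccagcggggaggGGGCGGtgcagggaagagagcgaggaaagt
Col4a6: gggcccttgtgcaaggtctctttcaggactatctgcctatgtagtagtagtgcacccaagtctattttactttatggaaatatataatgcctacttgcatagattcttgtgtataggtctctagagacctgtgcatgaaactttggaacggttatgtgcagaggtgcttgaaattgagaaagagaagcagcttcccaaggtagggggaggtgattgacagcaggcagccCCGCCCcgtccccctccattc
The Col4a1 to Col4a2 overlap and the Col4a5 and Col4a6 windows each hold a GC box, and the 71 bases between Col4a4 and Col4a3 hold none of the motifs searched.

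Col4a1 had 1072, 1092 and 1098 CPM in the libraries labelled knockout, against 1748, 1698 and 1739 CPM in wild type. It fell 1.59-fold (log2 -0.67 ± 0.015 SE, edgeR adjusted p = 7.31e-11). Col4a2 had 988, 998 and 991 CPM in the libraries labelled knockout, against 1467, 1486 and 1538 CPM in wild type, and fell 1.51-fold (log2 -0.59 ± 0.017 SE, edgeR adjusted p = 8.66e-10). The chains of the common network thus moved by similar amounts, and with library totals they stayed lower, at -0.26 and -0.18. Their ratio was 0.971 ± 0.0101 in the libraries labelled knockout and 1.02 ± 0.0284 in wild type, apart but by little.

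Col4a5 had 279.9, 278 and 273 CPM in the libraries labelled knockout, against 231, 234 and 227 CPM in wild type (log2 0.26 ± 0.025 SE, edgeR adjusted p = 2.12e-05). Its neighbour Col4a6 had 179.9, 177 and 179 CPM in the libraries labelled knockout, against 109, 108 and 97.6 CPM in wild type, and rose 1.71-fold (log2 0.77 ± 0.043 SE, edgeR adjusted p = 2.5e-07). Col4a6 therefore moved further than Col4a5, and their FPKM ratio was 1.85, 1.87 and 1.81 in the libraries labelled knockout, against 2.52, 2.58 and 2.76 in wild type. Col4a4 had 49.3, 47.2 and 47.6 CPM in the libraries labelled knockout, against 29.0, 32.8 and 32.6 CPM in wild type (log2 0.61 ± 0.063 SE, edgeR adjusted p = 3.77e-05). Col4a3 had 24.5, 26.1 and 24.8 CPM in the libraries labelled knockout, against 16.2, 18.1 and 21.1 CPM in wild type (log2 0.45 ± 0.098 SE, edgeR adjusted p = 0.00649). No library labelled knockout fell within the wild type range for any of these 4 genes. The Col4a3 to Col4a4 ratio overlapped, at 0.559 ± 0.0302 in the libraries labelled knockout and 0.624 ± 0.0562 in wild type (exact two-sided permutation p = 0.2, adjusted 0.22). Of the exon bases of Col4a3, 5.65% lie over an antisense gene, and whether counting used strand is not stated.

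As a share of all type IV FPKM, Col4a3 to Col4a6 together made up 19.6%, 19.2% and 19.1% in the libraries labelled knockout, against 10.3%, 10.5% and 9.92% in wild type. The groups were apart by many times their spread (exact two-sided permutation p = 0.1, the smallest possible). This share is a ratio within type IV and needs no library scaling. Beside it, all 6 endothelial markers were higher in the libraries labelled knockout. Of 6 smooth muscle markers, 4 were higher and 1 lower with TMM, and their sum was lower. The part of these or other cell types in the type IV shift was not tested.

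**Figure D4:**
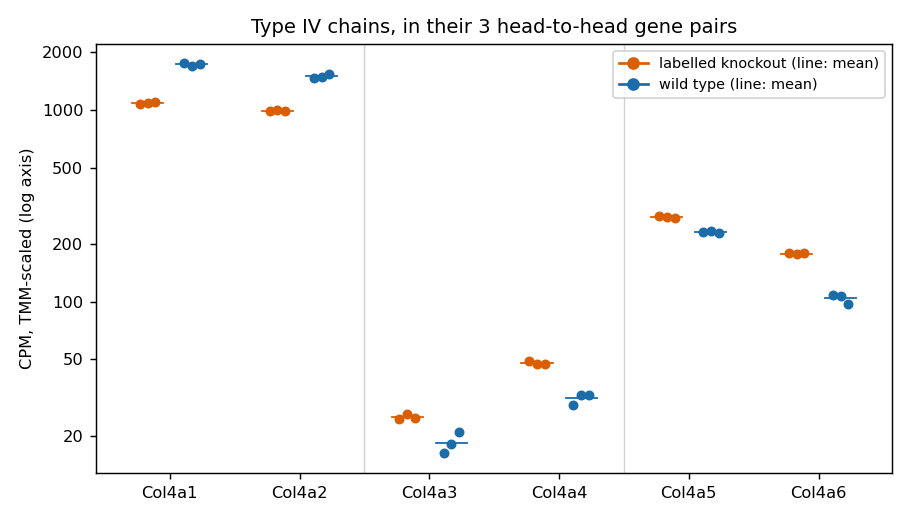
CPM on a log axis for the 6 type IV chain genes, separated by grey lines into their 3 head-to-head pairs, each point a library and each line a group mean, labelled knockout left of wild type. Col4a1 and Col4a2 are lower and the other 4 genes higher in the libraries labelled knockout.

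The multiplexins Col18a1 and Col15a1, collagens of the basement membrane zone whose C-terminal fragments include endostatin, differed in direction with TMM. Col18a1 had 2204, 2149 and 2189 CPM in the libraries labelled knockout, against 2513, 2575 and 2571 CPM in wild type (log2 -0.23 ± 0.013 SE, edgeR adjusted p = 2.42e-07), but was higher with library totals (0.18). Col15a1 had 601, 597 and 609 CPM in the libraries labelled knockout, against 494, 495 and 476 CPM in wild type, and rose 1.23-fold (log2 0.30 ± 0.021 SE, edgeR adjusted p = 1.29e-06), also with library totals (0.71). For both genes the groups were apart. Col7a1, the anchoring fibril chain of skin, was scarce and not called, at 2.18 ± 0.451 CPM in the libraries labelled knockout and 2.04 ± 0.176 CPM in wild type.

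Among network collagens, the 3 main type VI chains, which build beaded filaments around cells, moved together and slightly. Col6a1 had 486, 498 and 493 CPM in the libraries labelled knockout, against 599.8, 629 and 621 CPM in wild type (log2 -0.32 ± 0.022 SE, edgeR adjusted p = 1.15e-06). Col6a2 had 561, 563 and 568 CPM in the libraries labelled knockout, against 661, 655 and 684 CPM in wild type (log2 -0.24 ± 0.02 SE, edgeR adjusted p = 5.87e-06). Col6a3, the long chain, had 593, 591 and 592 CPM in the libraries labelled knockout, against 746, 733 and 744 CPM in wild type (log2 -0.32 ± 0.016 SE, edgeR adjusted p = 8.82e-08). The groups were apart for each, yet all 3 directions depend on the scaling, with log2 fold changes of 0.09, 0.17 and 0.09 for Col6a1, Col6a2 and Col6a3 under library totals. The Col6a3 to Col6a1 ratio was 0.440 ± 0.0065 in the libraries labelled knockout and 0.440 ± 0.0145 in wild type (exact two-sided permutation p = 0.9), and the Col6a1 to Col6a2 ratio 1.66 ± 0.0204 in the libraries labelled knockout and 1.76 ± 0.0574 in wild type.

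The alternative type VI chains, which can stand in for Col6a3, were scarce and lie in a row on chromosome 9. Col6a4 had 25, 15 and 17 counts in the libraries labelled knockout, against 62, 51 and 63 counts in wild type, and 0.311, 0.172 and 0.204 CPM in the libraries labelled knockout, against 1.12, 0.897 and 0.978 CPM in wild type (log2 -2.12 ± 0.49 SE, edgeR adjusted p = 0.0089). Its neighbours Col6a6 and Col6a5 were not called lower. Col6a6 averaged 9.25 ± 0.306 CPM in the libraries labelled knockout and 6.75 ± 0.560 CPM in wild type (log2 0.45 ± 0.13 SE, edgeR adjusted p = 0.0239), a call lost in 4 of 6 fits with a library left out, at adjusted p-values of up to 0.081, namely without wild type library 2 and without any of the labelled knockout libraries. Col6a5 was not called (3.49 ± 0.276 CPM in the libraries labelled knockout, 2.72 ± 0.557 CPM in wild type). Col10a1, the chain of hypertrophic cartilage, was not called either, at 0.482 ± 0.137 CPM in the libraries labelled knockout and 0.712 ± 0.117 CPM in wild type.

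In type VIII the partner chains moved apart. Col8a1, a short-chain collagen that smooth muscle cells make in injured arteries (at chr16:57624258-57754737, minus strand), had 49.2, 48.4 and 49.3 CPM in the libraries labelled knockout, against 174, 179 and 188 CPM in wild type. It fell 3.69-fold with groups far apart (log2 -1.88 ± 0.04 SE, edgeR adjusted p = 5.02e-11) and was lower with library totals (-1.47). Its partner Col8a2 had 5.93, 6.54 and 6.28 CPM in the libraries labelled knockout, against 4.41, 5.26 and 4.69 CPM in wild type. These groups did not overlap, but Col8a2 was not called (log2 0.39 ± 0.15 SE, edgeR adjusted p = 0.0912), while DESeq2 and edgeR with library totals did call it higher. The FPKM ratio of Col8a1 to Col8a2 was 4.72, 4.22 and 4.48 in the libraries labelled knockout, against 22.4, 19.3 and 22.7 in wild type, 4.79-fold lower. The 250 bases before each start are shown because these partners moved apart, from RefSeq's table (GRCm38.p6). The Col8a1 window lies at chr16:57754738-57754987 on the minus strand and the Col8a2 window at chr4:126286544-126286793 on the plus strand.
Col8a1: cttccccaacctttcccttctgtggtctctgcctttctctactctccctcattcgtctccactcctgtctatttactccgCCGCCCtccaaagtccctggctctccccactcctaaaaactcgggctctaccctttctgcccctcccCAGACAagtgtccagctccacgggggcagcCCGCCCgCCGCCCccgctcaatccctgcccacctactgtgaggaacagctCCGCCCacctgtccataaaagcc
Col8a2: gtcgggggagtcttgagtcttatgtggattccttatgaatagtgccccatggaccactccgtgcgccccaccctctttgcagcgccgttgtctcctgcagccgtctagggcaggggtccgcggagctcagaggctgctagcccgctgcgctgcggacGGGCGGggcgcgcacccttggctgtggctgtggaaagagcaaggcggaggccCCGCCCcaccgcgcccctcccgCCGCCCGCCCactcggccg
Both windows hold several GC boxes, those of the other strand reading CCGCCC, and of this pair the Col8a1 window alone holds the short SMAD element.

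Among the FACIT genes, which decorate fibrils, Col14a1 and its close relative Col12a1 moved in opposite directions. Col14a1, which binds fibrils and limits their lateral growth, had 429.8, 440.1 and 444 CPM in the libraries labelled knockout, against 229.8, 224 and 232 CPM in wild type, and rose 1.91-fold (log2 0.94 ± 0.024 SE, edgeR adjusted p = 3.31e-10). Col12a1 had 58.8, 58.3 and 60.2 CPM in the libraries labelled knockout, against 133, 130.1 and 132 CPM in wild type, and fell 2.23-fold (log2 -1.16 ± 0.037 SE, edgeR adjusted p = 2.31e-09). Groups were apart for both, and both directions held with library totals, at 1.35 and -0.75. The summed level of the 9 FACIT genes was 607 ± 5.33 CPM in the libraries labelled knockout and 457 ± 10.5 CPM in wild type, mostly through Col14a1.

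Col16a1, a fibril-associated chain second to Col14a1 in FPKM among the FACIT genes, averaged 102 ± 3.73 CPM in the libraries labelled knockout and 88.8 ± 6.33 CPM in wild type (log2 0.20 ± 0.054 SE, edgeR adjusted p = 0.0177), a call lost in 4 of 6 fits with a library left out, namely without wild type library 1 or 2 and without labelled knockout library 1 or 2, at adjusted p-values of up to 0.0733. Col20a1 had 5.26, 5.79 and 6.61 CPM in the libraries labelled knockout, against 2.90, 3.01 and 3.03 CPM in wild type (log2 0.98 ± 0.17 SE, edgeR adjusted p = 0.0015). Col19a1 had 55, 88 and 49 counts in the libraries labelled knockout, against 164, 140 and 169 counts in wild type, and 0.684, 1.01 and 0.588 CPM in the libraries labelled knockout, against 2.97, 2.46 and 2.62 CPM in wild type (log2 -1.82 ± 0.30 SE, edgeR adjusted p = 0.00106). Groups were apart for each of these 3 genes. Col9a1 had 0, 14 and 0 counts in the libraries labelled knockout, against 34, 36 and 25 counts in wild type, and was not called (edgeR adjusted p = 0.0937), though it was by DESeq2 and without labelled knockout library 2 (edgeR adjusted p = 0.00649). Col9a3, with 6.07% of its exon bases over an antisense gene, and Col22a1 were not called, at 0.534 ± 0.0162 and 0.341 ± 0.231 CPM in the libraries labelled knockout and 0.389 ± 0.342 and 0.376 ± 0.306 CPM in wild type. Col9a2 had 0, 0 and 6 counts in the libraries labelled knockout, against 0, 0 and 12 counts in wild type, and was not tested, so the Col9a1 to Col9a2 ratio rested on the pseudocount and is not described.

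Transmembrane collagens were scarce, and their called genes moved in opposite directions. Col23a1 had 8.41, 8.80 and 6.70 CPM in the libraries labelled knockout, against 2.68, 2.44 and 1.47 CPM in wild type, and rose 3.63-fold (log2 1.86 ± 0.23 SE, edgeR adjusted p = 0.000149), the largest fitted increase among the called collagen genes. Col13a1, found at cell adhesion sites and the neuromuscular junction, had 23, 32 and 13 counts in the libraries labelled knockout, against 158, 123 and 163 counts in wild type, and 0.286, 0.367 and 0.156 CPM in the libraries labelled knockout, against 2.86, 2.16 and 2.53 CPM in wild type. It fell 9.28-fold (log2 -3.21 ± 0.38 SE, edgeR adjusted p = 9.75e-05), the largest fitted decrease among the called collagen genes. The groups were apart for both. Col17a1, a hemidesmosome chain of skin, had 13, 10 and 11 counts in the libraries labelled knockout, against 0, 4 and 27 counts in wild type and was not called, and Col25a1 had 6, 7 and 0 counts in the libraries labelled knockout, against 7, 3 and 3 counts in wild type, and was not tested. Like Col13a1, Col2a1 and Col19a1, 4 of 5 lung markers were lower in the libraries labelled knockout, also with library totals. Of the kidney and striated muscle markers tested 2 of 4 and 2 of 6 were lower, mainly Aqp2 and Acta1, while with library totals 1 was lower on each list and 1 kidney and 2 striated muscle markers were higher. Of all genes, 11.5% were lower with TMM, and 3.81% lower and 46.8% higher with library totals. The part of these tissues in the scarce collagen genes was not tested.

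Of the 2 genes outside these types, Col28a1, a chain found around nerve glia in mice, averaged 6.60 ± 0.841 CPM in the libraries labelled knockout and 5.40 ± 0.848 CPM in wild type and was not called (edgeR adjusted p = 0.268). Col26a1 had 18, 30 and 20 counts in the libraries labelled knockout, against 0, 17 and 0 counts in wild type, and was not called (edgeR adjusted p = 0.513), though it was without wild type library 2 (edgeR adjusted p = 0.0306).

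The makeup of the collagen pool was described by the share of each chain in the summed collagen FPKM of its library, which needs no library scaling but depends on exon length. Fibrillar chains made up 47.5% ± 0.044 in the libraries labelled knockout and 54.3% ± 0.0636 in wild type, and basement membrane chains 37.0% ± 0.129 in the libraries labelled knockout and 33.0% ± 0.0394 in wild type. Network chains made up 11.4% ± 0.0723 in the libraries labelled knockout and 10.7% ± 0.074 in wild type, and FACIT chains 3.97% ± 0.0314 in the libraries labelled knockout and 1.93% ± 0.0427 in wild type. Among single chains, Col1a1 held 15.8% ± 0.0806 in the libraries labelled knockout and 20.99% ± 0.1475 in wild type, and Col3a1 12.8% ± 0.0244 in the libraries labelled knockout and 16.4% ± 0.116 in wild type. Shares that were larger in the libraries labelled knockout were those of Col18a1, at 14.9% ± 0.192 against 12.6% ± 0.102 in wild type, and of Col1a2, at 12.6% ± 0.0262 against 10.5% ± 0.085 in wild type. Col15a1 likewise held 4.54% ± 0.0392 in the libraries labelled knockout and 2.67% ± 0.0764 in wild type, and Col14a1 2.99% ± 0.0436 in the libraries labelled knockout and 1.13% ± 0.0192 in wild type. Per kilobase of the longest coding transcript, the leading chain was Col1a2 in the libraries labelled knockout (20.9%) and Col3a1 in wild type (20.8%).

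**Figure D5:**
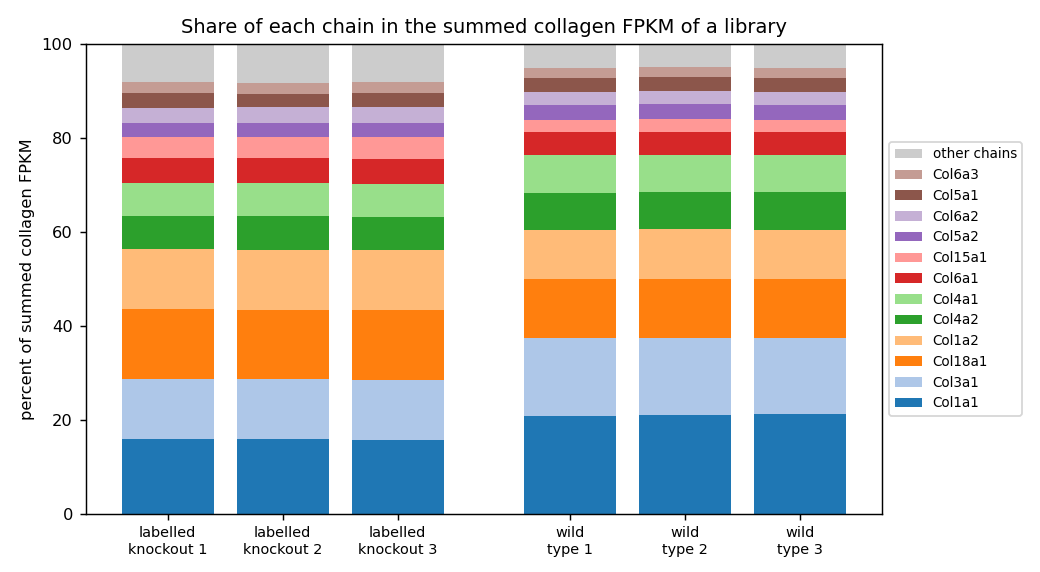
Percent of the summed collagen FPKM held by each of the 12 leading chains and by all others, 1 bar per library, the libraries labelled knockout left of the wild type ones. Col1a1, Col3a1, Col4a1 and Col4a2 hold smaller shares in the libraries labelled knockout, Col1a2, Col18a1, Col15a1 and the grey block of chains outside the 12 larger ones, and libraries of a group look alike.

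The genes that modify, secrete, sense and cleave collagen were read from 4 lists, of whose 55 genes 50 were tested. In the libraries labelled knockout 10 were higher and 17 lower, beside the 13.2% and 11.5% of all genes. Many of these genes are well expressed and others scarce. Of all genes with a mean FPKM of at least 10, 20.9% were called higher and 34.0% lower, so these counts are not read as particular to the lists. With library totals 34 were higher and 6 lower, beside 46.8% and 3.81% of all genes. Of the 27 genes called with TMM, 10 turned sign with library totals, all of them lower with TMM. Library totals shift genes upwards together (median of all genes 0.41), so only genes lower with TMM could turn. Of 20 modification and folding genes, 2 were higher and 9 lower (median log2 fold change -0.10, and 0.31 with library totals). Sparc, a collagen-binding chaperone-like matrix protein, had 3056, 3133 and 3099 CPM in the libraries labelled knockout, against 4244, 4276 and 4257 CPM in wild type (log2 -0.46 ± 0.0094 SE, edgeR adjusted p = 3.51e-11), and stayed lower with library totals (-0.05). P4hb, a subunit of prolyl 4-hydroxylase, averaged 414 ± 3.09 CPM in the libraries labelled knockout and 533 ± 3.17 CPM in wild type, and Serpinh1, the collagen chaperone of the endoplasmic reticulum, 483 ± 2.36 CPM in the libraries labelled knockout and 616 ± 9.76 CPM in wild type. Both were lower with TMM, at -0.36 and -0.35 (edgeR adjusted p = 1.11e-07 and 1.71e-07), and turned to 0.05 and 0.06 with library totals.

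Of 13 secretion and processing genes tested, 5 were higher and 2 lower. Tll1, a proteinase that removes procollagen C-propeptides, had 7.39, 9.02 and 7.51 CPM in the libraries labelled knockout, against 1.03, 0.932 and 1.21 CPM in wild type (log2 fold change 2.91, edgeR adjusted p = 1.06e-06). Pcolce2, an enhancer of such proteinases, averaged 100.4 ± 5.49 CPM in the libraries labelled knockout and 46.8 ± 3.94 CPM in wild type (1.10, edgeR adjusted p = 3.84e-07). Adamts14, which removes N-propeptides, fell (5.68 ± 0.272 CPM in the libraries labelled knockout, 14.3 ± 0.331 CPM in wild type, -1.33, edgeR adjusted p = 6.43e-06). For these 3 genes the groups were apart and library totals gave the same direction.

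Of 10 receptor and uptake genes tested, 3 were higher and 3 lower. Itgb1, the shared beta chain of collagen-binding integrins, averaged 1319 ± 3.41 CPM in the libraries labelled knockout and 1490 ± 14.2 CPM in wild type (-0.18, edgeR adjusted p = 1.13e-06), and Mrc2, an endocytic collagen receptor, 94.4 ± 1.97 CPM in the libraries labelled knockout and 123 ± 2.95 CPM in wild type (-0.38, edgeR adjusted p = 2.27e-05), both turning to higher with library totals (0.23 and 0.03). Adgrg1, a receptor that binds type III collagen, averaged 36.3 ± 1.44 CPM in the libraries labelled knockout and 20.8 ± 1.20 CPM in wild type (0.80, edgeR adjusted p = 9.61e-06). Of 7 cleavage genes tested, 3 were lower, each also with library totals, and 4 were not called. The gelatinase Mmp2 averaged 125 ± 3.29 CPM in the libraries labelled knockout and 249 ± 5.94 CPM in wild type (-0.99, edgeR adjusted p = 2.75e-09). The membrane collagenase Mmp14 averaged 44.5 ± 0.702 CPM in the libraries labelled knockout and 95.1 ± 4.59 CPM in wild type (-1.10, edgeR adjusted p = 3.43e-08), and the collagen-degrading cathepsin Ctsk 44.4 ± 1.72 CPM in the libraries labelled knockout and 68.9 ± 1.71 CPM in wild type (-0.63, edgeR adjusted p = 4.3e-06).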

How the data were processed

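Per the labels' protocols, RNA isolated with Trizol was enriched for poly(A) transcripts and read from both ends on an Illumina sequencer. That text speaks of an adipose type although every sample carries the label aorta. Bowtie 0.12.2, HISAT2 2.0 and the build mm8 are listed, per the submitters' processing notes, with no role. The gene coordinates equal those of GENCODE M21 on GRCm38 for 37793 genes and 38 of the collagen genes, and are given as deposited. The counting tool and its use of strand are not stated. The deposited counts are whole numbers per gene and were treated as estimated counts, because low values peak at 4 and 8. At 12 the number of genes (322 to 394 per library) overlapped that at 11 (298 to 335). This may stand for about 4 counts per read pair, which was not tested. If so, the counts given for scarce genes stand for fewer read pairs. They were rounded, which changed none. The deposited FPKM, made by the authors, are proportional to counts per kilobase of union exons over each library's total including mitochondrial genes. The divisor implied by their ratio to counts had a median of 1.18 times that product in every library, and the source of this factor was not tested. The libraries had 63612353 to 75886761 counts, and as reads carry no molecular identifiers they are not independent molecules.

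Counts were filtered with filterByExpr, scaled with TMM and tested with edgeR 4.0.16 in R 4.3.3, without covariates, over all 20132 genes that passed. The edgeR step alone was run on simulated counts, drawn with dispersions fitted to these same data. Changes were planted only in genes above a minimum count. Scarce genes, chain ratios, shares and sums were thus not covered. Values in every library are given for the 12 collagen genes with the highest mean FPKM, for up to 6 others each with the largest increase and decrease among those called, and for both chains of the fixed pairs. Up to 3 genes with the smallest p per pathway list are given, mostly as mean and SD. Other collagen genes given by library were chosen after their values were seen. The members and lists were chosen with earlier results of these data known. Chain ratios used FPKM with a pseudocount of 0.01. Overlapping exons and similar transcripts (BLAST+ 2.17.0, at least 97% identity over 100 bases) were checked. Alternatives were library totals with and without mitochondrial genes, DESeq2 1.42.0 and its factors, other filters, counts divided by 4, limma 3.58.1 on log2 FPKM with pseudocounts of 1 and 0.1, robust edgeR, the replicate number as a block and each library left out. The labels state no batch.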

Additional observations from a re-analysis of the deposited data

How the results depend on the processing

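Library totals gave 20 collagen genes called higher, as did limma on log2(FPKM + 1) and on log2(FPKM + 0.1), and a mean FPKM of at least 1 left 7 higher of fewer genes tested. Limma on log2(FPKM + 1) called 12 lower. The median log2 fold change of collagen genes was 0.18 with library totals, -0.072 with totals without mitochondrial genes, and 0.081 and 0.17 with limma at pseudocounts of 1 and 0.1. Library totals called 34 of the pathway genes higher and 6 lower, and totals without mitochondrial genes 18 and 11. Library totals with and without mitochondrial genes shift all genes together, to medians of 0.41 and 0.15. The limma fits used the deposited FPKM, which carry the library totals, so they are not a separate scaling. Their medians over all genes were 0.20 and 0.35, with pseudocounts that make the fold changes of scarce genes smaller. Directions that reversed are given for library totals, limma + 1 and limma + 0.1. They were 0.21, 0.21 and 0.21 for Col1a2, 0.085, 0.084 and 0.084 for Col6a1, 0.17, 0.17 and 0.17 for Col6a2, 0.086, 0.084 and 0.085 for Col6a3, and 0.18, 0.18 and 0.18 for Col18a1. For genes that were not called they were 0.13, 0.0027 and 0.044 for Col17a1, 0.27, 0.0085 and 0.067 for Col22a1, and 0.40, 0.21 and 0.37 for Col27a1. Totals without mitochondrial genes gave 0.019 for Col22a1 and 0.15 for Col27a1, and no filter 0.023 for Col27a1. With each library left out in turn, 8 to 10 collagen genes were called higher and 19 to 20 lower, and log2 fold changes ranged from -0.042 to 0.25 for Col7a1, -0.0497 to 1.30 for Col9a3, -0.84 to 1.90 for Col17a1, -0.82 to 0.76 for Col22a1 and -0.071 to 0.059 for Col27a1. The log2 difference of the Col6a3 to Col6a1 ratio ranged from -0.0215 to 0.0257. The cause of the reversals among scarce genes was not tested.

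The replicate numbers showed no pairing, as deviations of same-numbered libraries correlated at 0.034, -0.023 and -0.0096, 2 of 6 libraries correlated best with their own number, and nothing in the labels ties them. With the replicate number as a block 10 collagen genes were higher and 19 lower, Col17a1 turned to 0.75, and Col11a2 was not called. Scarce genes set the depth limit, as 17 of the collagen genes tested had a mean FPKM under 1.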
